A study of Danio rerio with 9 samples.

Results

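Collagen genes are the 45 genes, of 29291 in the table, whose zebrafish symbol reads col, a type number, the letter a and a chain number, with any ending. They cover 20 collagen types, and 40 of them reached 1 RPKM (reads scaled to gene length and to the number of mapped reads) in at least 1 library, as 19868 genes of the table did. By type number they were placed in 7 classes. These were 11 fibrillar genes (types I, II, V and XI), 5 of type IV, 3 of the basement membrane zone (VII, XV and XVIII), 11 FACIT genes, which sit on the surface of fibrils (IX, XII, XIV, XVI, XIX and XXI), 4 of short-chain networks (VIII and X), 7 of beaded filaments and related chains rich in von Willebrand factor A domains (VI and XXVIII), and 4 transmembrane genes (XVII and XXIII). Symbols are written as the name table gives them, many in capitals. COL2A1 and COL12A1 each stand for a pair of gene IDs, which are told apart below by their IDs. The files do not say which chain copy the capital symbols stand for beyond that.

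Whole zebrafish of the AB strain were collected at 9 stages, about 2000 individuals each, and their poly(A) RNA was sequenced to follow development from cleavage to the larva. In hours after fertilization, the 64-cell embryos were 2 hours old, oblong-sphere blastulae 3.6 to 4, gastrulae at 50%-epiboly 5.25, and embryos with 15 somites (15-somite) 16.5 to 17.5. Prim-25 embryos were taken at 36 hours and those called Long-pec at 48. Pec-fin followed at 60 hours and Protruding-mouth at 72, and the last stage was a larva of 1 week. Each stage is 1 library of pooled animals, so no difference was tested, there is no replicate error, and each comparison describes these libraries. Differences between neighbouring stages are in log2(RPKM + 1), the later minus the earlier. The text counts genes past 2-fold and sets the same count over all 19868 genes beside it.

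The number of mapped reads, worked out from the RPKM values, lay between 123311411 (64-cell) and 205507592 (Protruding-mouth), and to 171010360 and 59857652 for the pair of runs read as making up Pec-fin. Reads were recovered for 26 of the 45 collagen genes. Their exact 95% Poisson intervals reached 0.339% to 3.73% to either side of values of 10 RPKM or more, and at most 12.3% for values between 1 and 10 RPKM. These intervals cover counting error only, and the pair of runs differed by 0.2996% to 5.70% in the 13 collagen genes of 10 RPKM or more that could be compared. No collagen gene was at 0 in any library. Gene copies close in sequence, such as col1a1a and COL1A1, can share reads.

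Collagens are triple helices of chains that are hydroxylated and folded in the endoplasmic reticulum, exported, trimmed outside the cell and crosslinked. Fibrillar collagens bear load in skin, tendon, bone and cartilage, type IV forms the sheet of basement membranes, and FACIT and beaded collagens link fibrils to each other and to cells. In zebrafish embryos the first collagen-rich organ is the notochord, whose sheath holds type II collagen, followed by the fin folds, the skin and the cartilage of the head and fins.

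Collagen RNA was scarce in cleavage and blastula embryos, appeared in quantity by the 15-somite stage and was most abundant at Protruding-mouth. In stage order, collagen genes held 0.00507%, 0.00437%, 0.00819%, 0.147%, 0.257%, 0.188%, 0.212%, 0.412% and 0.162% of the summed RPKM of each library. The number at 1 RPKM or more was 2, 3, 7, 28, 35, 33, 38, 37 and 38 of 45. Over all 29291 genes it was 11701, 11638, 10700, 13068, 13648, 13455, 13752, 15563 and 17381. Of the 40 genes past the filter, 20 first reached 1 RPKM at 15-somite and 6 each at 50%-epiboly and Prim-25. No share over all genes is given for these first-reached counts. In bulk samples, fewer cells of a type and less RNA per cell cannot be told apart.

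**Figure D1:**
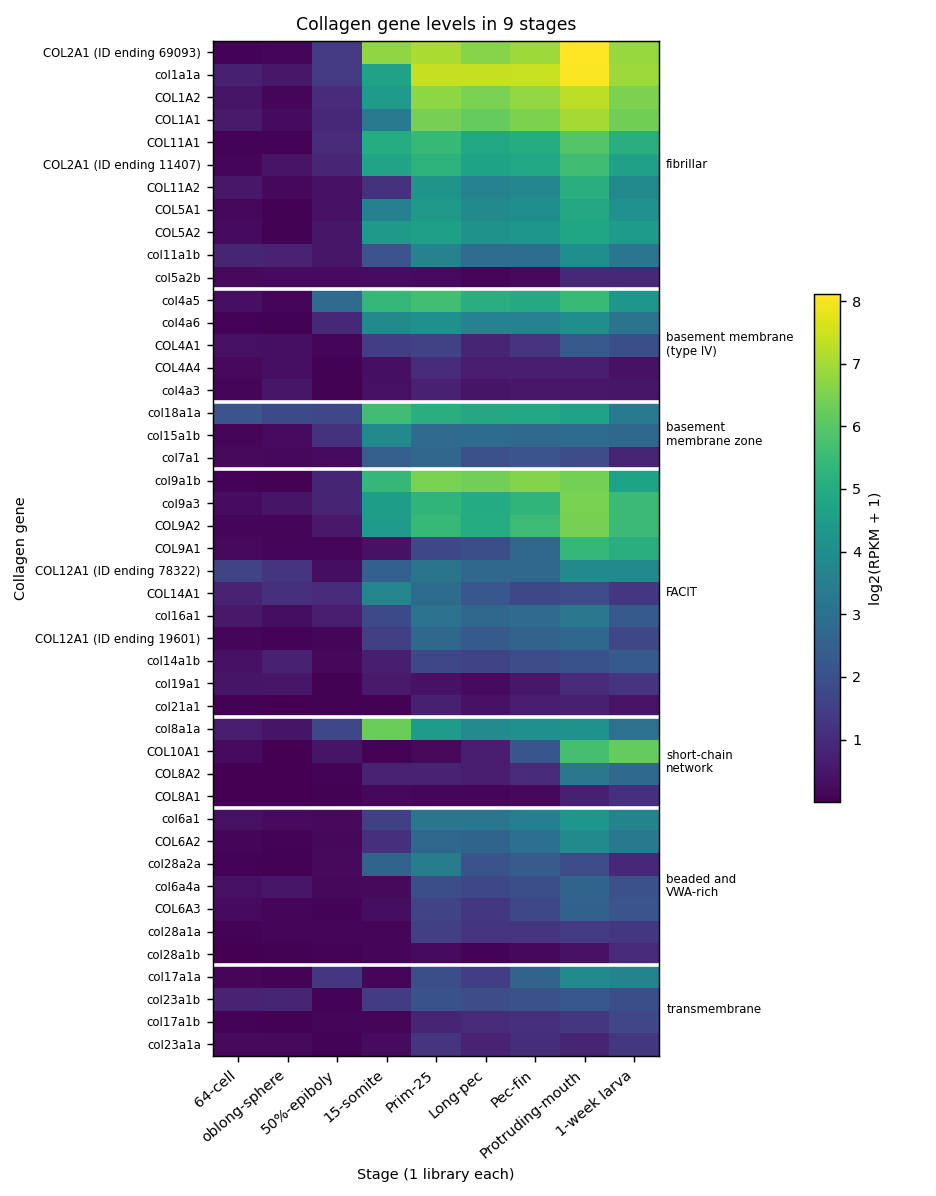
Level of each of the 45 collagen genes (rows, by class) in each of the 9 stages (columns, 1 library each), as log2(RPKM + 1). The first 3 columns are dark apart from a few genes, and the brightest cells are COL2A1 and col1a1a at Protruding-mouth, at 274 and 268 RPKM.

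The largest single step for the family was from 50%-epiboly to 15-somite, with 26 of the 40 genes (65%) at least 2-fold higher and 1 lower, against 16.4% of all genes higher and 4.91% lower. The median difference over the 45 collagen genes was 1.39, against 0.18 over all genes. From 15-somite to Prim-25, 16 were higher and 2 lower, against 6.23% and 4.96% of all genes. From Pec-fin to Protruding-mouth, 10 were higher and 0 lower, against 7.18% and 2.1%. From Protruding-mouth to 1 week, 0 were higher and 8 lower, against 15.1% and 6.86%. The median difference was -0.59 over the 45 collagen genes, of which 36 had a lower value, against 0.003 over all genes. These later counts depend on scaling. Median-of-ratios scaling shifted the log2 values by -0.31 and -0.43 at the last 2 steps. With it 5 genes were higher at Protruding-mouth and 20 lower at 1 week. No share over all genes is given beside these 2 counts, so they cannot be set against the shares above. With that scaling the median difference of collagen genes was 1.27 at the step to 15-somite, 0.25 at the step to Protruding-mouth and -0.87 at the last step, beside medians over all genes of -0.01, -0.01 and -0.26.

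At the steps before 15-somite most collagen genes were at low levels, and the counts depend on the pseudocount and the scaling. From 64-cell to oblong-sphere 0 were higher and 0 lower, against 3.1% and 3.3% of all genes, and with a pseudocount of 0.1 RPKM 1 was higher and 5 lower. From oblong-sphere to 50%-epiboly 4 were higher and 0 lower, against 14.4% and 31.1%. At that step 10 were higher with median-of-ratios scaling, and 16 were higher and 6 lower with a pseudocount of 0.1 RPKM. No share over all genes is given for these alternative settings, at this step or the one before it. From Prim-25 to Long-pec 0 were higher and 1 lower (0.81% and 0.403% of all genes), and from Long-pec to Pec-fin 2 were higher and 0 lower (0.785% and 0.72%). The gene lower at Long-pec was col28a2a, at 9.58 RPKM at Prim-25 and 3.18 at Long-pec.

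**Figure D2:**
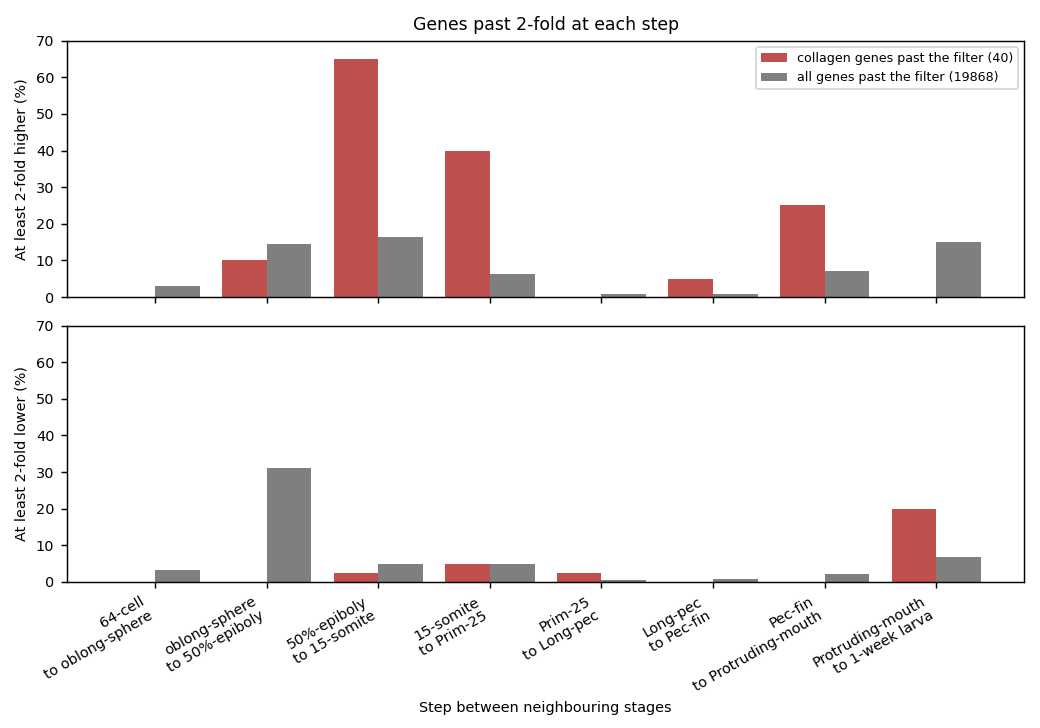
Percent of genes at least 2-fold higher (top) or lower (bottom) at each of the 8 steps between neighbouring stages, for the 40 collagen genes past the filter (red) and all 19868 genes past it (grey), 1 library per stage. The red bars are tallest at the steps to 15-somite (65%), Prim-25 (40%) and Protruding-mouth (25%) in the top panel and at the last step (20%) in the bottom one.

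The fibrillar genes held 44.3% of collagen RPKM at 15-somite and between 59.5% and 64.4% at the 5 later stages, and their median level went from 0.831 RPKM at 50%-epiboly to 19.4 at 15-somite and 48.4 at Protruding-mouth. All 10 that passed the filter had their highest level at Protruding-mouth, where 10.1% of all genes did. With median-of-ratios scaling 9 of the 10 did, and COL5A2 was highest at Prim-25. The eleventh, col5a2b, stayed at or below 0.928 RPKM.

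COL2A1 (ENSDARG00000069093), a gene of type II, the collagen of cartilage and of the notochord sheath, was the most abundant fibrillar gene at 15-somite. In stage order its levels were 0.0669, 0.108, 1.58, 106, 135, 98.2, 121, 274 and 115 RPKM. It was the highest collagen gene at 15-somite and again at Protruding-mouth. The other COL2A1 gene (ENSDARG00000011407) ran at lower levels of 0.0744, 0.343, 0.831, 25.9, 37.2, 24.9, 27.1, 48.4 and 23.96 RPKM. From 15-somite on the first exceeded the second by between 3.62 and 5.67 times.

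Type XI chains are built into type II fibrils. COL11A1 was at 0.0716, 0.0657, 0.988, 31.6, 41.9, 27.7, 31.6, 60.6 and 33.2 RPKM, with 15-somite already within its later range. COL11A2 was later, with 0.457, 0.132, 0.286, 1.26, 17.5, 11.0, 12.6, 33.2 and 13.8 RPKM. The COL11A1 to COL11A2 ratio was 25.04 at 15-somite and between 1.83 and 2.52 at every stage after it. A copy of the first chain, col11a1b, reached 3.46 RPKM at 15-somite, 11.4 at Prim-25 and 15.3 at Protruding-mouth.

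The type I genes encode the main fibril of skin, tendon and bone. In stage order col1a1a was at 0.648, 0.432, 1.59, 24.4, 167, 166, 169.7, 268 and 119 RPKM. COL1A2 was at 0.393, 0.102, 0.993, 21.4, 106, 87.7, 111, 157 and 89.5 RPKM, and COL1A1 at 0.515, 0.181, 0.868, 9.14, 85.3, 71.8, 90.2, 129 and 81.1 RPKM. All 3 were over 2-fold higher at Prim-25 than at 15-somite, with differences of 2.72 for col1a1a, 2.26 for COL1A2 and 3.09 for COL1A1. Over the same step the difference for COL2A1 (ENSDARG00000069093) was 0.34.

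In the type I helix of mammals α1 chains outnumber α2. Here the sum of col1a1a and COL1A1 was 1.57 times COL1A2 at 15-somite, and 2.38, 2.71, 2.35, 2.52 and 2.24 times at the stages after it. These are ratios of RNA, and the chains in the zebrafish helix were not measured. From 15-somite on, the share of COL1A1 in this sum was smallest at 15-somite, where col1a1a was 2.67 times COL1A1, against 1.47 times at 1 week.

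Type V chains are minor components of type I fibrils. COL5A2 was at 0.196, 0.0350, 0.401, 19.4, 23.6, 16.8, 18.3, 27.1 and 20.7 RPKM, so 15-somite was already within the range of later stages. COL5A1 stood at 10.7 RPKM at 15-somite and between 13.3 and 28.7 RPKM after it. From 15-somite on, the ratio of COL5A1 to COL5A2 lay between 0.553 (15-somite) and 1.06 (Protruding-mouth).

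**Figure D3:**
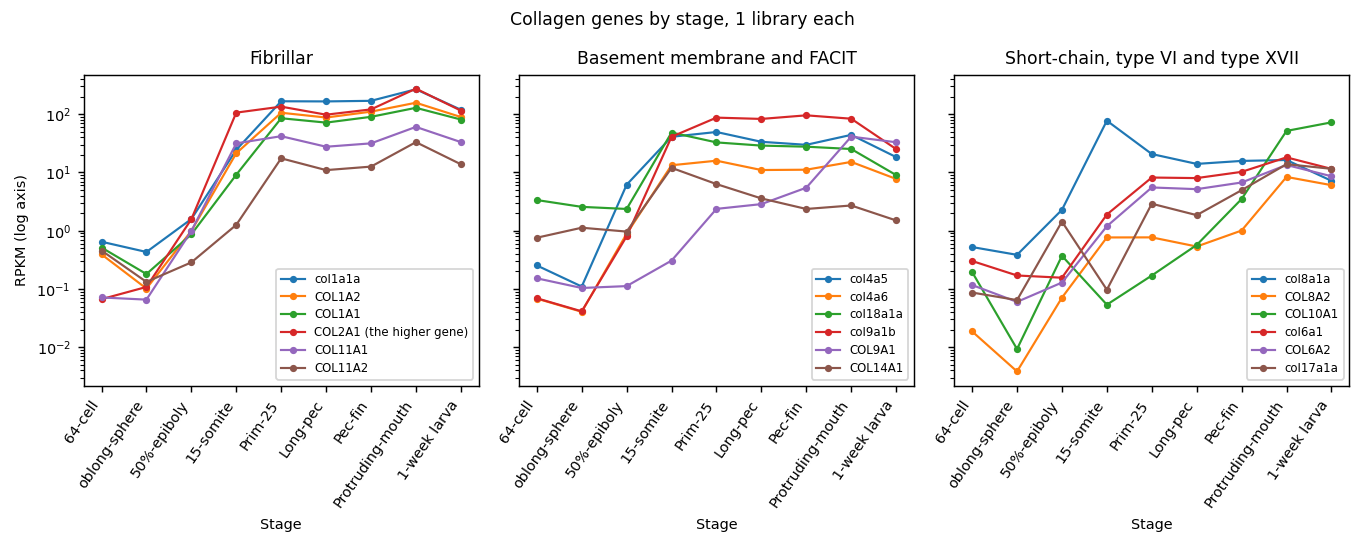
RPKM (log axis) by stage for 18 collagen genes in 3 panels, 1 library per stage and therefore no error bars. In the left panel the higher COL2A1 gene is far above the type I genes at 15-somite and beside them from Prim-25 on, and in the right panel col8a1a is highest at 15-somite and COL10A1 at 1 week.

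In type IV, the sheet-forming collagen of basement membranes, col4a5 was the most abundant gene from 50%-epiboly on. In stage order it was at 0.254, 0.110, 6.16, 41.0, 49.5, 33.6, 29.8, 44.2 and 18.4 RPKM. It was the most abundant collagen gene at 50%-epiboly and the only member at 5 RPKM or more there. Its partner col4a6, which lies beside it with no protein-coding gene between them in RefSeq's GRCz12tu order, was at 0.0685, 0.0406, 0.887, 13.3, 15.9, 11.0, 11.2, 15.2 and 7.75 RPKM. From 15-somite on the ratio of col4a5 to col4a6 stayed between 2.37 and 3.11.

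COL4A1, whose mammalian counterpart is part of the most widespread type IV network, never exceeded 3.87 RPKM. It was between 0.0242 and 0.156 times col4a5 from 15-somite on. No col4a2 gene was among the 5 type IV genes, so that network was followed here through COL4A1 alone. COL4A4 and col4a3, also neighbours with no protein-coding gene between them, did not pass the filter and had their highest values, 0.980 and 0.694 RPKM, at Prim-25.

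In the basement membrane zone, type XVIII is a heparan sulfate proteoglycan that carries endostatin at its end, and col18a1a was the most abundant collagen gene at 64-cell and oblong-sphere. Its levels were 3.36, 2.57, 2.37, 48.5, 32.8, 28.9, 27.7, 25.3 and 9.02 RPKM. The related type XV gene col15a1b was at 0.112, 0.183, 1.25, 13.8, 6.19, 6.28, 5.84, 6.29 and 5.63 RPKM, and at Prim-25 it was over 2-fold below 15-somite. Both had their highest level at 15-somite. Type VII, which makes the anchoring fibrils of skin, was highest at Prim-25, where col7a1 stood at 5.45 RPKM.

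Other basement membrane genes were described beside them, from a list of laminins, nidogens, perlecan, agrin and the Fraser complex. Of 17 measured, 9 were higher at 15-somite than at 50%-epiboly and 0 lower, against 16.4% and 4.91% of all genes, with a median difference of 1.19, against 0.18 over all genes. AGRN, a heparan sulfate proteoglycan, went from 0.155 to 10.2 RPKM and the laminin chain gene LAMA5 from 0.556 to 12.7 RPKM. Among Fraser complex genes, FREM3 went from 0.0459 to 6.06 RPKM and frem1b from 1.59 to 6.20 RPKM. Of the 14 past the filter, 8 had their highest level at 15-somite, where 8.01% of all genes did.

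Short-chain collagens of types VIII and X form hexagonal networks. The type VIII gene col8a1a, required in zebrafish for a normal notochord sheath, was at 0.525, 0.386, 2.29, 77.4, 20.7, 14.03, 15.8, 16.4 and 7.21 RPKM. It was the second most abundant collagen gene at 15-somite and 1.85 lower on the log2(RPKM + 1) scale at Prim-25. Of 4 notochord markers measured, 3 were higher from oblong-sphere to 50%-epiboly, against 14.4% of all genes. In the next step 3 were higher and 1 lower, against 16.4% and 4.91%, and from 15-somite to Prim-25 3 were lower, against 4.96%. At that last step emilin3a, a sheath component, went from 24.2 to 1.46 RPKM, the notochord homeobox gene noto from 5.62 to 0.606 RPKM and ntd5 from 41.6 to 17.1 RPKM. The remaining marker, LOXL1, went from 2.17 to 3.02 RPKM. Later, emilin3a was at 7.54 RPKM at Protruding-mouth and ntd5 at 24.4 RPKM at 1 week, while noto was at 0.153 RPKM at 1 week. The part of notochord content in the col8a1a values was not tested.

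Type X collagen marks hypertrophic cartilage and, in zebrafish, bone-forming cells. COL10A1 was at 0.196, 0.00932, 0.371, 0.0538, 0.170, 0.570, 3.50, 51.7 and 72.5 RPKM. It was over 2-fold higher at Pec-fin than at Long-pec, and its difference of 3.55 from Pec-fin to Protruding-mouth was the largest of any collagen gene at that step. The other type VIII genes were also late. COL8A2 went from 1.01 RPKM at Pec-fin to 8.39 at Protruding-mouth, and COL8A1 first passed 1 RPKM at 1 week, at 1.14 RPKM.

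Among the FACIT genes, the type IX chains, which decorate type II fibrils, were the most abundant. In stage order col9a1b was at 0.0694, 0.0414, 0.803, 41.0, 87.4, 83.0, 95.7, 83.7 and 25.2 RPKM. COL9A2 was at 0.104, 0.104, 0.460, 21.4, 41.8, 31.4, 46.6, 85.6 and 45.4 RPKM, and col9a3 at 0.211, 0.375, 0.782, 21.98, 38.3, 31.1, 38.1, 88.8 and 44.6 RPKM. The α2 and α3 chains stayed close to each other, at a ratio of COL9A2 to col9a3 of 0.963 to 1.22 from 15-somite on.

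The ratio between the 2 gene copies of the α1 chain changed over these stages. COL9A1 was at 0.153, 0.104, 0.112, 0.307, 2.37, 2.86, 5.48, 41.2 and 33.0 RPKM. The ratio of col9a1b to COL9A1 was 134 at 15-somite, then 36.8, 29.0, 17.5, 2.03 and, at 1 week, 0.764. Summed, the 2 α1 genes were 1.93 times COL9A2 at 15-somite, 2.73 times at Long-pec and 1.28 times at 1 week.

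Types XII and XIV also had a pair of genes each. Type XIV is found with fibrils in embryonic connective tissue, and COL14A1 was at 0.759, 1.13, 0.967, 12.002, 6.32, 3.59, 2.36, 2.71 and 1.502 RPKM. Its copy col14a1b reached 3.94 RPKM at 1 week, and the ratio of COL14A1 to col14a1b went from 19.3 at 15-somite to 0.381 at 1 week. The higher COL12A1 gene (ENSDARG00000078322) was among the few collagens detected at 64-cell, at 2.19 RPKM, and was at 0.244 RPKM at 50%-epiboly and 13.3 at 1 week. Its values rest on a recovered length of 1065 bases, the shortest of the 26 collagen genes with one. The other COL12A1 gene (ENSDARG00000019601) was at most 5.76 RPKM, at Prim-25. The highest level of col16a1 was 8.35 RPKM, at Protruding-mouth, or at Prim-25 with median-of-ratios scaling. The other FACIT genes, col19a1 and col21a1, stayed at or below 1.38 RPKM.

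**Figure D4:**
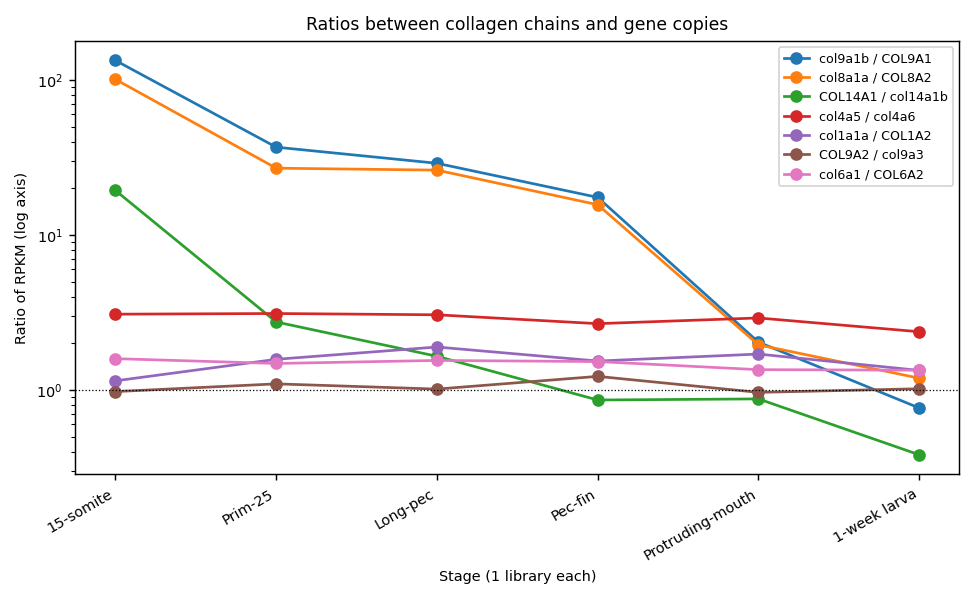
Ratio of RPKM (log axis) between chains of 1 collagen or copies of 1 chain at the 6 stages from 15-somite on, 1 library each, with a dotted line at equal levels. From 15-somite to 1 week col9a1b over COL9A1 goes from 134 to 0.764, col8a1a over COL8A2 from 101 to 1.19 and COL14A1 over col14a1b from 19.3 to 0.381. The other plotted pairs run from 1.14 to 1.89 for col1a1a over COL1A2, 2.37 to 3.11 for col4a5 over col4a6, 1.34 to 1.59 for col6a1 over COL6A2 and 0.963 to 1.22 for COL9A2 over col9a3.

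Type VI forms beaded filaments close to cells, in muscle and connective tissue among others. In stage order col6a1 was at 0.302, 0.171, 0.156, 1.90, 8.19, 8.01, 10.2, 18.2 and 11.5 RPKM. COL6A2 was at 0.117, 0.0602, 0.129, 1.19, 5.53, 5.17, 6.73, 13.5 and 8.61 RPKM, and the ratio of col6a1 to COL6A2 stayed between 1.34 and 1.59 from 15-somite on. COL6A3 and col6a4a reached 4.72 and 5.12 RPKM at Protruding-mouth. Of the 7 genes of this class 5 were higher from 15-somite to Prim-25, against 6.23% of all genes, with a class median of 1.44, against 0.65 over all collagen genes.

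Among the transmembrane genes, col17a1a, a component of the hemidesmosomes that fasten epidermis to its basement membrane, had a course of its own. It was at 0.0870, 0.0645, 1.43, 0.0971, 2.91, 1.85, 4.97, 13.9 and 11.6 RPKM. On the log2(RPKM + 1) scale it was thus over 2-fold higher at 50%-epiboly than at oblong-sphere. On that scale it was, alone among the collagen genes, over 2-fold lower at 15-somite. With a pseudocount of 0.1 RPKM 2 collagen genes were lower at 15-somite, and no share over all genes is given for that setting. The other 3 genes of the class, col17a1b, col23a1a and col23a1b, stayed at or below 3.65 RPKM. The class median from Pec-fin to Protruding-mouth was 0.18, and -0.03 with median-of-ratios scaling.

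**Figure D5:**
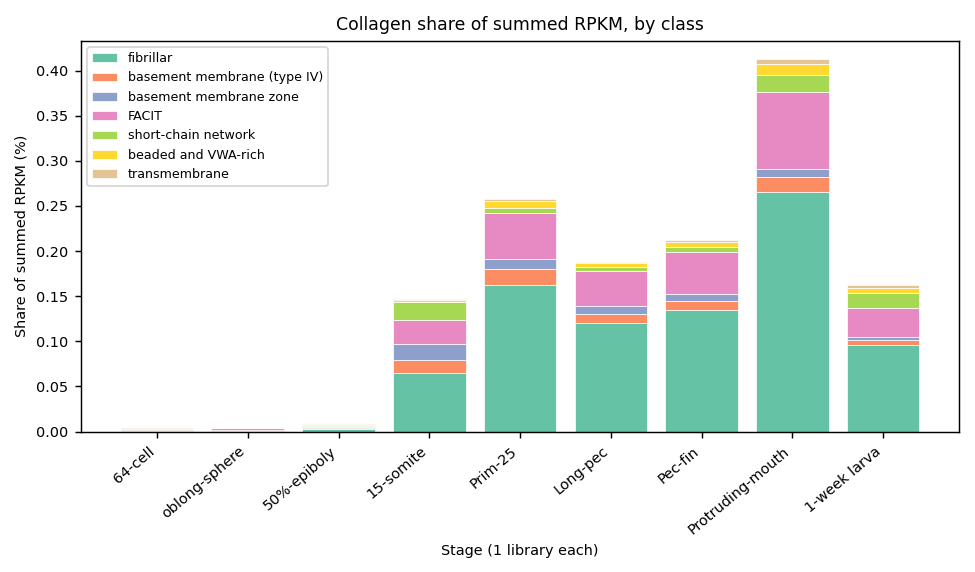
Share of each library's summed RPKM held by collagen genes (percent), stacked by class, for the 9 stages. The bar is tallest at Protruding-mouth, at 0.412%, with 0.266% from fibrillar genes, and the Long-pec bar, at 0.188%, is lower than those on either side.

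The Long-pec library had lower collagen values than its neighbours. In it 35 of the 45 collagen genes were lower than at both Prim-25 and Pec-fin. Past the filter these were 31 of 40, against 27.7% of all genes past it. With median-of-ratios scaling, an alternative chosen after seeing the data, 38 of the 45 were lower than both. For that setting no share over all genes is given. The ratio of Long-pec to Prim-25 over the 25 genes that reached 10 RPKM had a median of 0.728 and ran from 0.565 for col11a1b to 3.35 for COL10A1. Apart from col28a2a, each collagen gene at Long-pec was within 2-fold of its Prim-25 value on the log2(RPKM + 1) scale. The 10 genes that were not lower than both included col4a5, col18a1a, COL9A1 and COL10A1.

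Markers of other tissues were also followed in that library, where 0.81% of all genes were higher than at Prim-25 and 0.72% lower at the next stage. Of 20 measured exocrine pancreas enzymes, 11 were higher in it than at Prim-25 (18 with a pseudocount of 0.1 RPKM) and 13 lower at Pec-fin, with summed levels of 24.7, 90.3 and 9.84 RPKM. Of 13 oocyte and gonad markers, 4 were higher (9 with that pseudocount) and then 6 lower, with summed levels of 6.39, 28.7 and 1.56 RPKM. No share over all genes is given for that pseudocount. The same lists summed to 86.1 and 907 RPKM at 64-cell and to 0.603 and 319.6 RPKM at oblong-sphere. Of the second list, insl3 was at 1.76, 12.8 and 0.0865 RPKM at Prim-25, Long-pec and Pec-fin. From Prim-25 to Long-pec 0 genes of that list were at least 2-fold lower. One of its genes, figla, was at 0 in every library before 1 week. At 50%-epiboly the lists summed to 52.2 and 77.5 RPKM, and at 15-somite to 113.5 and 39.4 RPKM. The part of these tissues in the collagen values was not tested.

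Several genes that make collagen were above 10 RPKM at 50%-epiboly, where no collagen gene was. The same held at 64-cell and oblong-sphere, where PPIB was at 70.8 and 80.0 RPKM and P4HA1 at 36.6 and 30.6 RPKM. At 50%-epiboly P4HA1 was at 5.25 RPKM. The list of enzymes that hydroxylate and glycosylate chains had 12 measured genes, of which 6 were higher and 1 lower at 50%-epiboly than at oblong-sphere, against 14.4% and 31.1% of all genes, with a median difference of 1.22, against -0.09 over all genes. CRTAP went from 0.373 to 44.7 RPKM, P4HA2 from 0.0941 to 29.7 RPKM, P3H1 from 0.0380 to 13.5 RPKM and PLOD1 from 0.130 to 10.2 RPKM. CRTAP and P3H1 act together in prolyl 3-hydroxylation, P4HA2 is a catalytic subunit of prolyl 4-hydroxylase and PLOD1 a lysyl hydroxylase. From 50%-epiboly to 15-somite 5 were higher and 0 lower, against 16.4% and 4.91%, but with median-of-ratios scaling 1 was higher. From 15-somite to Prim-25, 5 were lower and 0 higher, against 4.96% and 6.23%, and from Protruding-mouth to 1 week 6 were lower, against 6.86%. Of the 11 past the filter 6 had their highest level at 15-somite, where 8.01% of all genes and 4 of 40 collagen genes did.

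Folding, export and procollagen cleavage genes, 17 measured, split at 50%-epiboly, with 6 higher and 4 lower than at oblong-sphere, against 14.4% and 31.1% of all genes. SERPINH1 (ENSDARG00000019949), the collagen chaperone also known as HSP47, was at 0.0673, 0.0710, 52.1, 222, 58.7, 37.0, 43.4, 41.4 and 14.8 RPKM. The second SERPINH1 gene (ENSDARG00000075954) was at 2.59 RPKM at oblong-sphere, 35.8 at 50%-epiboly and 64.7 at 15-somite. Lower at 50%-epiboly were the peptidyl-prolyl isomerase gene FKBP10, from 8.99 to 0.936 RPKM, and BMP1 (ENSDARG00000028053), a procollagen C-proteinase, from 5.49 to 0.289 RPKM. Of the 17, 4 were highest at 15-somite, against 8.01% of all genes.

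The SERPINH1 gene and the fibrillar genes thus had their highest levels at different stages. SERPINH1 (ENSDARG00000019949) was 222 RPKM at 15-somite and 41.4 at Protruding-mouth, when fibrillar genes summed to 254 and 1043 RPKM.

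The 6 crosslinking enzymes measured, from 10 listed, had a summed level of at most 15.4 RPKM, at 1 week. From 50%-epiboly to 15-somite 2 were higher and 0 lower, against 16.4% and 4.91% of all genes, among them loxl5b, from 0.255 to 9.66 RPKM. Of the 5 past the filter 3 were highest at 1 week, where 27.2% of all genes were.

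Cartilage and bone genes were described from 2 lists. Of 17 matrix genes other than collagens, 6 were higher and 1 lower from 15-somite to Prim-25, against 6.23% and 4.96% of all genes. The higher ones included MATN4, from 5.12 to 72.1 RPKM, chad, from 0.240 to 9.16 RPKM, snorc, from 1.63 to 16.9 RPKM, and PHEX, a bone endopeptidase, from 0.535 to 7.34 RPKM. PHEX had higher levels before that, 20.3 RPKM at 64-cell and 12.3 at oblong-sphere. From Pec-fin to Protruding-mouth 2 were higher, against 7.18% of all genes. With a pseudocount of 0.1 RPKM 5 were, and no share over all genes is given for that setting. MATN1, a cartilage matrilin, went from 0.235 to 109 RPKM at this step, at which COL10A1 and COL9A1 were over 2-fold higher. At 1 week, where 27.2% of all genes were highest, 9 of the 16 past the filter were, against 7 of the 40 collagen genes. Of 10 regulators measured, from 18 listed, 3 were higher and 0 lower at 15-somite than at 50%-epiboly, against 16.4% and 4.91% of all genes. From 15-somite to Prim-25, 1 was higher and 1 lower, against 6.23% and 4.96%, with a median difference of 0.03. The higher one was BARX1, a homeobox gene of the pharyngeal arches, from 0.160 to 6.89 RPKM.

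Of 10 tendon, fin fold and dermal fibroblast markers measured, 5 were higher and 0 lower at Prim-25 than at 15-somite, against 6.23% and 4.96% of all genes, with a median difference of 1.02, against -0.06 over all genes. The actinodin genes, whose proteins form the fin fold rods with collagen, went from 0.471 to 58.7 RPKM for and1, 0.210 to 37.8 RPKM for and2 and 0.293 to 18.02 RPKM for and3. TGFBI, a collagen-binding matrix protein, went from 46.8 to 104 RPKM. From Prim-25 to Long-pec 3 of the 10 were higher and 0 lower, against 0.81% and 0.403% of all genes. They were the same actinodin genes, at 165, 101 and 53.8 RPKM at Long-pec. At Pec-fin these genes were at 105, 96.9 and 50.3 RPKM.

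Genes that bind or degrade collagen were also compared at the step to 15-somite. Of 7 receptors measured, 2 were higher and 0 lower at 15-somite than at 50%-epiboly, against 16.4% and 4.91% of all genes, and 1 was higher with median-of-ratios scaling. DDR1, a receptor tyrosine kinase for collagen, went from 0.256 to 5.87 RPKM. Of 4 breakdown genes, 2 were higher, with the gelatinase gene MMP2 at 0.960 and 20.7 RPKM and the collagenase gene mmp13a at 0.330 and 5.33 RPKM. Before 50%-epiboly, DDR1 was at 3.02 RPKM at 64-cell and 3.50 at oblong-sphere, and mmp13a at 3.85 RPKM at 64-cell and 0.0174 at oblong-sphere.

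By the stage of their highest level, the 40 collagen genes past the filter fell into 5 groups. At 15-somite, where 8.01% of all genes were highest, were 4 of them, col8a1a, col18a1a, col15a1b and COL14A1. At Prim-25, where 2.49% of all genes were highest, were 6, including col4a5 and col4a6. At Pec-fin, where 2.94% were, was col9a1b alone. At Protruding-mouth, where 10.1% were, were 22. Leaving out the 1-week library made this 28, and no share over all genes is given for that setting. At 1 week, where 27.2% were, were 7, including COL10A1 and the higher COL12A1 gene. That COL12A1 gene was at 13.1 RPKM at Protruding-mouth and 13.3 at 1 week. With median-of-ratios scaling its highest level was at Protruding-mouth. With median-of-ratios scaling 10 were highest at Prim-25 and 4 at 1 week, and no share over all genes is given for that setting either.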

How the data were processed

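The deposited table gives RPKM per Ensembl gene, as computed by the authors, with 29291 genes and 1 column for each of 9 stages. The genome build was Zv9 per the submitters' processing notes, and libraries were SOLiD fragment libraries of poly(A) RNA per the labels' protocols. For the aligner, the counter and the annotation release, the sources used here give no name. RPKM is divided by gene length and mapped reads. Comparisons of levels between genes, such as the chain and copy ratios, therefore depend on the gene lengths used. The recovered lengths of collagen genes ran from 1065 to 16616 bases and were not checked against other gene models. A share of summed RPKM is no share of reads.

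Symbols matched 19580 of the 29291 IDs. The name table lists 57 collagen IDs, of which 12 are not among the IDs of the RPKM table. Genes with at least 1 RPKM in 1 library or more were kept for counts. Differences used a pseudocount of 1 RPKM and were counted at 2-fold, with no test. Whole reads were recovered for 15452 of the 19868 genes kept (77.8%), to a relative tolerance of 1e-11, and Pec-fin values were read as the mean of 2 runs, which rests on the values alone. The other 19 collagen genes have no interval here. The code was tested on simulated data.

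Every collagen gene of 10 RPKM or more in some library, 25 in all, is named with values, and of each partner list up to 4 genes with the largest difference at the step described and 5 RPKM or more in the higher library. Some other list genes are named beside these. Members, classes and lists were chosen with earlier results of these data known. List members share the 9 libraries with the collagens, and LOXL1 is on the crosslinking and the notochord list. Listed genes whose symbol matched no ID were left out, and some symbols matched more than 1 ID. Listed were 29 basement membrane, 13 notochord, 25 pancreas and 15 oocyte and gonad genes. Also listed were 18 hydroxylation and glycosylation, 25 folding, export and cleavage, and 10 crosslinking genes. The other lists held 25 cartilage and bone matrix genes, 18 regulators, 17 fibroblast markers, 17 receptors and 16 breakdown genes. RefSeq's GRCz12tu table was used only for which genes are neighbours. Alternatives were a pseudocount of 0.1, no filter, median-of-ratios scaling, leaving out the 100 most abundant genes, a 4-fold threshold, detection at 0.5 or 5 RPKM, shares of recovered reads or without mitochondrially encoded genes, leaving out the 1-week larva, and each Pec-fin run alone. Python 3.11.15, numpy 2.4.6, pandas 2.3.3, scipy 1.17.1 and matplotlib 3.10.9 were used.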

Additional observations from a re-analysis of the deposited data

How the results depend on the processing

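No paired analysis was possible because each stage has 1 library. Without the 1-week larva 28 collagen genes were highest at Protruding-mouth, and with either Pec-fin run alone 22 were, as reported. Of 168 recomputed main values, 126 stayed within 1.5 times (shares within 25%) of the reported one, and 42 did not. For counts in the alternative settings no share over all genes is given. With a pseudocount of 0.1, which weighs low genes more, 1 collagen gene was higher and 5 lower from 64-cell to oblong-sphere, 16 higher and 6 lower in the next step, 2 lower at 15-somite, and 1 higher and 2 lower at Long-pec. With median-of-ratios scaling 10 were higher at 50%-epiboly, 1 lower at Prim-25, 5 higher at Protruding-mouth and 20 lower at 1 week, 15 were detected at 50%-epiboly, and 10, 2 and 4 were highest at Prim-25, Pec-fin and 1 week. Without the 100 most abundant genes 1 was lower at Prim-25 and 23 at 1 week. At 4-fold, 1 was higher at 50%-epiboly, 4 at Prim-25, 0 at Pec-fin and 3 at Protruding-mouth, and 0 were lower at 15-somite, Prim-25, Long-pec and 1 week. At 0.5 RPKM 8, 6 and 16 were detected at the first 3 stages, and at 5 RPKM 0, 0, 1 and 18 at the first 4, 23 at Pec-fin and 25 at 1 week. As shares of recovered reads, which count long genes more, the 26 collagen genes with recovered reads held 0.0110%, 0.00912%, 0.0276%, 0.369%, 0.720%, 0.541%, 1.12% and 0.415% in the 8 libraries other than Pec-fin. These shares leave out the collagen genes without recovered reads, so they cover fewer genes than the RPKM shares. Of the class and list values, 2 reversed and 113 others moved. The type IV median from oblong-sphere to 50%-epiboly was -0.23 over all 5 genes and 0.86 over those past the filter, and the transmembrane median at Protruding-mouth was 0.18 and, with median-of-ratios scaling, -0.0277. The cause of the other differences was not tested. Matching more IDs through RefSeq was not run, since that table gives no Ensembl IDs, and protein features were not computed. Counting limits values under 1 RPKM: 3 reads, the floor, were 0.00409 RPKM at 64-cell and 0.00245 at Protruding-mouth at the median recovered collagen length of 5950.5 bases.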
